A study of Mus musculus with 4 samples.

Results

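The chromatin and DNA methylation regulators described here are 43 genes chosen by name for what their proteins do: they write, erase or read marks on DNA and histones, move nucleosomes, or belong to the Polycomb complexes. Of these, 42 had at least 1 probe set with a single gene symbol, among 18194 such genes on the array, and each was read from its brightest probe set, with the other probe sets as a check. The level needed for a test, the median over all probe sets (97.44 intensity units), was reached by 40 of them, among 10873 genes in all. Tet1 and Hdac9 lay under that level. Suv39h1 had no probe set with a single gene symbol, so it entered only the promoter windows described further on.

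RNA came from group 2 innate lymphoid cells (ILC2), tissue lymphocytes that make type 2 cytokines, of C57BL/6 mice, either Ets1-deleted or littermate controls. Ets1 encodes a DNA-binding factor of the ETS family. Cells of both genotypes had been kept for 2 weeks on OP9-DL1, a stromal line that presents a Notch ligand, fed with the cytokines IL-33 and IL-7, before a sort on the surface protein ICOS, so the values describe expanded cells and not ILC2 fresh from tissue. There were 4 Affymetrix arrays, 2 per genotype (n = 2 throughout), and neither the age of the mice nor the cells in which Ets1 was deleted is stated in the labels. The single comparison, Ets1-deleted minus control, asks which transcripts differ with the genotype. A difference is given in log2 units with the standard error (±) that limma estimated, and a gene is said to have risen or fallen where its adjusted p over all 10873 genes was under 0.05.

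DNA methyltransferases put methyl groups on cytosine, and TET dioxygenases oxidise them, which opens a way to their removal. The Polycomb repressive complexes work as a pair: PRC2 methylates histone tails at silenced genes, and PRC1 binds that mark through its CBX subunits and ubiquitinates histones. Acetyltransferases and deacetylases set the acetyl marks of active promoters and enhancers, while remodellers of the SWI/SNF and CHD families use ATP to slide or evict nucleosomes. In lymphocytes such enzymes are known for fixing or releasing cytokine genes and lineage programmes.

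Ets1 on its brightest probe set read 1272 and 1231 intensity units in the controls and 138 and 180 in the Ets1-deleted arrays, and its 4 probe sets were lower by 6.88- to 11.4-fold. Array medians ran from 96.5 to 97.71. With so few arrays the precision is limited: permuting 2 against 2 exactly gives no p under 0.333. Nothing in the labels says that arrays of a group are separate mice or cultures, so each p-value is set against the spread of these arrays alone, and that spread may be technical. In such mixed RNA, fewer cells of a type and less RNA per cell cannot be told apart.

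Among the 40 tested regulators, 5 rose (Kdm5b, Dnmt3a, Tet3, Ep300 and Ezh2) and 8 fell (Ezh1, Cbx7, Crebbp, Eed, Hdac5, Kdm4a, Chd7 and Setd2) in the Ets1-deleted arrays. The 13 calls are 32.5% of the tested regulators, near the 26.7% called among all tested genes. By direction, 12.5% rose and 20% fell, against a background of 13.9% and 12.8%. A 2-fold difference was reached by 0 of the 40 regulators and by 4.64% of all tested genes, and 3 regulators passed 1.5-fold (Kdm5b, Ezh1 and Dnmt3a), where 12.4% of all tested genes passed both limits. The median difference of the 40 was 0.02, against 0.00 over all tested genes, and their median size regardless of sign was 0.26, against 0.19. Groups did not overlap in 27 of the 40 (67.5%), beside 62.6% of all tested genes.

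Calls differed in how firmly they held. With 1 array left out the standard error grew for Chd7, Setd2 and Ezh2, whose differences hardly moved. A call can thus be lost in such a fit without a smaller difference. Kdm5b, Dnmt3a and Ezh1 kept theirs with any 1 array left out, and the other 10 lost it in at least 1 such fit, as given with each gene. After subtraction of each array's 5th percentile, the calls left were those of Kdm5b, Dnmt3a, Ezh1 and Hdac5, where 22.7% of all tested genes were called. With each gene's own variance in limma 0 of the 40 were called, beside 0.12% of all tested genes.

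**Figure D1:**
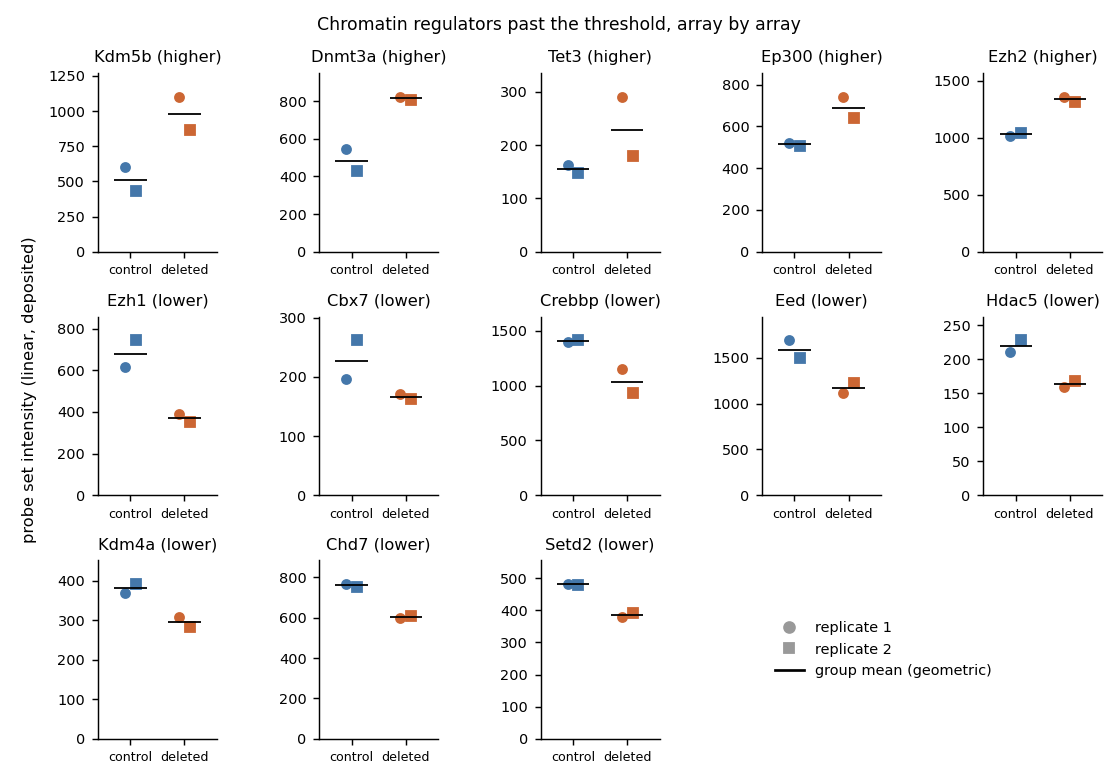
Deposited probe set intensity (linear, from 0) of the 13 regulators past the threshold, with 1 panel per gene, controls in blue, Ets1-deleted in orange, circles for replicate 1, squares for replicate 2 and bars for the geometric mean of a group. In all 13 panels the 2 genotypes are apart; the ratio of the group means is largest for Kdm5b (1.92) and Ezh1 (1.83), and the Tet3 arrays of the Ets1-deleted group, 291 and 179, lie farther from each other than the lower of them lies from the controls.

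**Figure D2:**
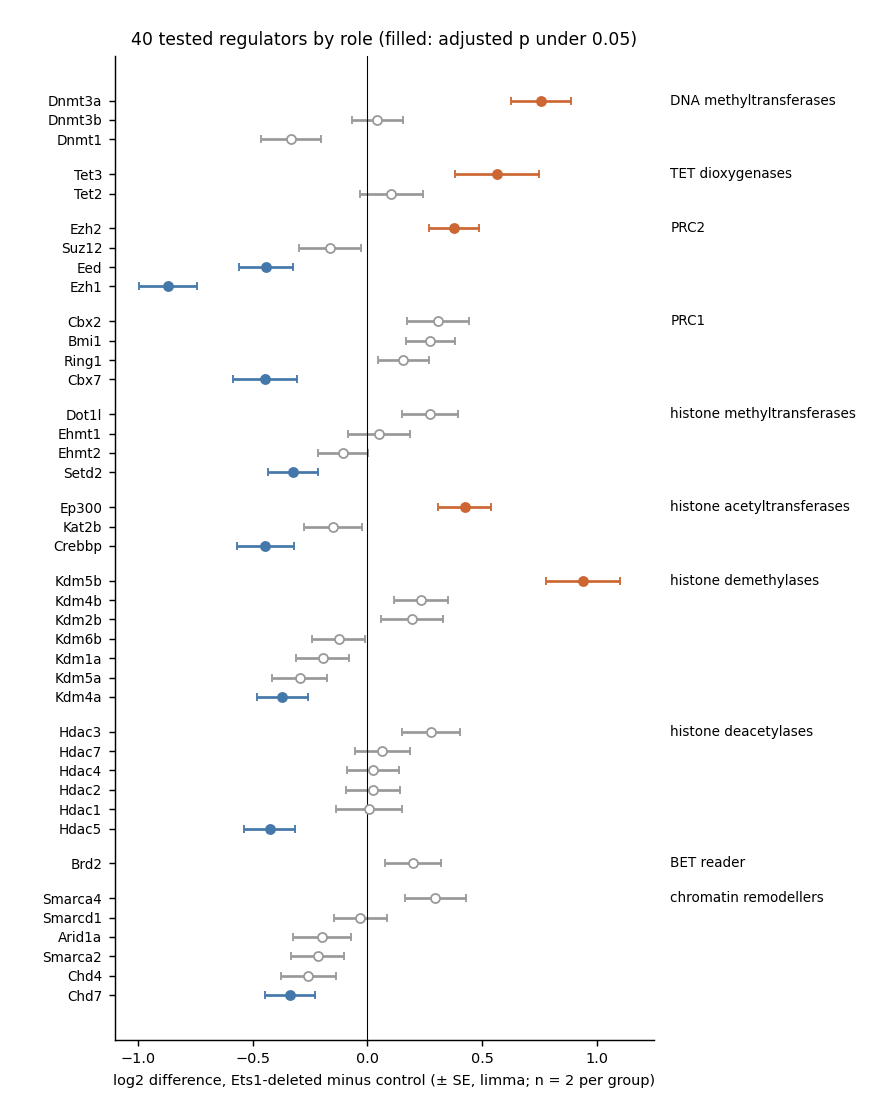
Log2 difference, Ets1-deleted minus control, of the 40 tested regulators by role, with bars for the SE of limma and filled points for genes past an adjusted p of 0.05 (orange higher, blue lower). Called genes run from -0.87 (Ezh1) to 0.94 (Kdm5b), and most roles hold points on both sides of 0.

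The DNA methyltransferases did not move together. Dnmt3a, which methylates new sites and restrains lymphocyte genes of other lineages, read 546 and 427 intensity units in the controls and 824 and 807 in the Ets1-deleted arrays. Both Ets1-deleted values lay above both controls, a rise of 0.76 ± 0.13 or 1.69-fold (limma, adjusted p = 0.000993). The other 4 Dnmt3a probe sets were higher as well, by 0.85, 0.51, 0.85 and 0.81. Dnmt1, which copies methylation onto new strands after replication, read 1731 and 1657 in the controls and 1189 and 1524 in the Ets1-deleted arrays. Its groups did not overlap, but the Ets1-deleted arrays stood well apart from each other, and the difference of -0.33 ± 0.13 did not pass (limma, adjusted p = 0.0842; 95% interval -0.62 to -0.05). Without Ets1-deleted replicate 2 it passed, at -0.51 (limma, adjusted p = 0.0108), and its other 2 probe sets differed by 0.04 and -0.11. For Dnmt3b, the second enzyme that sets new marks, the difference was 0.04 ± 0.11.

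The stretch of 250 bases before the start of the Dnmt3a transcript is shown because Dnmt3a is the DNA methyltransferase that was called, and every one of its 5 probe sets was higher. Here and in the sequences further on, from RefSeq in build GRCm38.p6 and read 5′ to 3′ on the gene's strand, capitals mark GGAA, the core of the ETS binding motif, or its reverse complement TTCC. RefSeq gives Dnmt3a 3 start windows, and this is the most upstream one, with 2 matches.

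Dnmt3a, chr12:3806730-3806979, plus strand: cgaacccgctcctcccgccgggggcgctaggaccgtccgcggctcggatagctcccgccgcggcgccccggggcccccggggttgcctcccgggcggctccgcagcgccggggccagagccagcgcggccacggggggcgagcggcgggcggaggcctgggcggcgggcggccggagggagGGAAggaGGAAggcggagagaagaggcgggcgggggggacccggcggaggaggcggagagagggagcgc

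Of the TET genes, Tet3 read 162 and 147 in the controls and 291 and 179 in the Ets1-deleted arrays. It rose by 0.56 ± 0.18 (limma, adjusted p = 0.0389), but the rise leaned on 1 array: without Ets1-deleted replicate 1 the difference was 0.21 (limma, adjusted p = 0.309), and without Ets1-deleted replicate 2 it was 0.92. The call was also lost without the filter on dim genes (adjusted p = 0.125 with limma) and where every gene was averaged over its probe sets (0.0656), although Tet3 itself has 1 probe set. Tet2, the TET gene most often studied in blood cells, read 654 and 751 against 857 and 664, with overlapping groups and a difference of 0.11 ± 0.14 (limma, adjusted p = 0.633). Tet1 was dim: 118 and 111 in the controls and 78.4 and 76.8 in the Ets1-deleted arrays, on either side of the level needed for a test. Its groups did not overlap, and in the fit without a filter, over 18194 genes, it differed by -0.56 ± 0.08 (limma, adjusted p = 0.00402). A second Tet1 probe set of like brightness went from 120 and 122 to 69.3 and 68.7.

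Within PRC2, the alternative catalytic subunits went opposite ways. Ezh1, the form known from resting cells, read 614 and 745 in the controls and 390 and 351 in the Ets1-deleted arrays. The groups were well apart, a fall by 0.87 ± 0.13 on the log2 scale or 1.83-fold (limma, adjusted p = 0.000275), and the second bright probe set differed by -0.91. Ezh2, the form known from dividing cells, read 1016 and 1046 in the controls and 1363 and 1317 in the Ets1-deleted arrays. Arrays of a genotype agreed closely, and Ezh2 rose by 0.38 ± 0.11 (limma, adjusted p = 0.0222). The Ezh2 call was lost without control replicate 1 (0.36), control replicate 2 (0.40) or Ets1-deleted replicate 1 (0.35). The differences were close to that of the full fit, and the standard errors were larger, at 0.17, 0.17 and 0.135. Eed, the subunit that binds the finished mark, read 1694 and 1493 in the controls and 1115 and 1228 in the Ets1-deleted arrays. No overlap was seen, and Eed fell by 0.44 ± 0.12 (limma, adjusted p = 0.0151), a call lost without control replicate 1 (-0.35, adjusted p = 0.136 with limma) or Ets1-deleted replicate 1 (-0.37, adjusted p = 0.0689 with limma). The mean of Eed with its second probe set, which lay under the level needed for a test and differed by -0.07, gave -0.26 (adjusted p = 0.0416 with limma). Suz12, the scaffold subunit, differed by -0.16 ± 0.13, and its 5 bright probe sets lay between -0.21 and 0.09.

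Start regions of Ezh1 and Ezh2 are set side by side because these genes encode alternative subunits of the same complex and changed in opposite directions. Each holds 2 matches to the GGAA core, with 1 on each strand for Ezh1 and both in the TTCC orientation for Ezh2.

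Ezh1, chr11:101226464-101226713, minus strand: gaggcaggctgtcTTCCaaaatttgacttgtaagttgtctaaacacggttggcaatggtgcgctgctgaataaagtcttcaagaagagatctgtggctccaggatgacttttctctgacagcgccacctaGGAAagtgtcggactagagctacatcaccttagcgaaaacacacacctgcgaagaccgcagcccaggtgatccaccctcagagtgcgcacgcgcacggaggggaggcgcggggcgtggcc

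Ezh2, chr6:47595031-47595280, minus strand: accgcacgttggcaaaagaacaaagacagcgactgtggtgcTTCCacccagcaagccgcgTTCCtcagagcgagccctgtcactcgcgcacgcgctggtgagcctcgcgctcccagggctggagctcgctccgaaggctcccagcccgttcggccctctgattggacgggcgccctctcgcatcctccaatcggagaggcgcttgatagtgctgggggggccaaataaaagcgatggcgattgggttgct

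In PRC1, Cbx7, a subunit that reads the PRC2 mark, was 196 and 262 in the controls and 171 and 163 in the Ets1-deleted arrays. The controls differed from each other more than the lower control did from the Ets1-deleted arrays, and Cbx7 fell by 0.44 ± 0.14 (limma, adjusted p = 0.0332). That call was lost without control replicate 2 (-0.23, adjusted p = 0.391 with limma) or Ets1-deleted replicate 2 (-0.41, adjusted p = 0.0806 with limma) and without the filter (adjusted p = 0.0767 with limma), and 1 of its other bright probe sets gave -0.47 and 1 gave -0.07. The remaining PRC1 genes had positive differences that did not pass: Cbx2, another reader, 0.31 ± 0.13, Bmi1, which steadies the ubiquitin ligase core, 0.28 ± 0.11, and Ring1, a ligase subunit, 0.16 ± 0.11. All 3 had groups that did not overlap, as did 62.6% of all tested genes. Second bright probe sets gave 0.255 for Cbx2 and, with overlapping groups, 0.007 for Bmi1. Cbx2 passed without Ets1-deleted replicate 1 (0.50, adjusted p = 0.0124 with limma).

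Of the 4 tested histone methyltransferases, Setd2, which methylates histones along transcribed genes, read 483 and 480 in the controls and 378 and 392 in the Ets1-deleted arrays. It fell by 0.32 ± 0.11 (limma, adjusted p = 0.0447), just inside the threshold. The Setd2 difference was -0.32 and -0.33 without control replicates 1 and 2 and -0.30 and -0.35 without Ets1-deleted replicates 1 and 2. The standard error was 0.17 without a control array and 0.135 without an Ets1-deleted one, and the call was lost. It was also lost with median centring (adjusted p = 0.0544 with limma) or a variance trend (0.0552), and with every probe set tested (0.0508). Dot1l, which methylates the histone core at active genes, differed by 0.27 ± 0.12 without passing. Averaged over its probe sets, Dot1l did pass (0.25, adjusted p = 0.0401 with limma). For the paired enzymes of silent euchromatin, Ehmt1 and Ehmt2, the differences were 0.05 ± 0.13 and -0.11 ± 0.11.

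The paralogous acetyltransferases and transcriptional coactivators Ep300 and Crebbp also diverged. Ep300 read 522 and 507 in the controls and 743 and 641 in the Ets1-deleted arrays, and Crebbp went from 1402 and 1416 to 1152 and 932. Both had tight controls and wider Ets1-deleted arrays, with no overlap. Ep300 rose by 0.42 ± 0.12 or 1.34-fold (limma, adjusted p = 0.0178). Crebbp fell by 0.44 ± 0.12 or 1.36-fold (limma, adjusted p = 0.0203), and its other 3 probe sets differed by -0.37, -0.45 and -0.36. Ep300 has 1 probe set, and its call was lost without control replicate 2 (0.40, adjusted p = 0.0761 with limma) or Ets1-deleted replicate 1 (0.32, adjusted p = 0.108 with limma). The Crebbp call was lost without Ets1-deleted replicate 2 (-0.29, adjusted p = 0.135 with limma). Kat2b, an acetyltransferase of another family, read 578 and 544 against 559 and 457 and differed by -0.15 ± 0.12, with overlapping groups.

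The start regions of Ep300 and Crebbp are printed for the same reason as those of the Ezh genes. The Ep300 stretch holds 0 matches to the GGAA core on either strand, and that of Crebbp holds 1.

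Ep300, chr15:81585964-81586213, plus strand: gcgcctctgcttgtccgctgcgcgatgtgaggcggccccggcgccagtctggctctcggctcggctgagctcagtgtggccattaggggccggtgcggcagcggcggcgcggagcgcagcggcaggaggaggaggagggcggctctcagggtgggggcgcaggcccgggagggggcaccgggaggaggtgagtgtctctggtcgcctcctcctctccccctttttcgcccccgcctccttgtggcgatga

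Crebbp, chr16:4213405-4213654, minus strand: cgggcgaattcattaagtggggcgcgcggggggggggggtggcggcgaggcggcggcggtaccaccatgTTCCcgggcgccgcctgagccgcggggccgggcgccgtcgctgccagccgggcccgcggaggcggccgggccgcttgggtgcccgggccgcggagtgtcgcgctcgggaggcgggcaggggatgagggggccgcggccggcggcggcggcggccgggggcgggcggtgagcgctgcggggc

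Among the 7 histone demethylases, Kdm5b, which removes the methyl mark of active promoters, had the largest rise of all 40 regulators. It read 602 and 431 in the controls and 1104 and 866 in the Ets1-deleted arrays. The groups were clearly apart despite a spread within each, a rise of 0.94 ± 0.16 or 1.92-fold (limma, adjusted p = 0.00107). Its second bright probe set went from 240 and 236 to 417 and 397 (0.77), and the mean over all 4 of its probe sets, 2 of them under the level needed for a test, gave 0.42. Kdm5a, its paralogue with the same substrate, differed by -0.30 ± 0.12 and did not pass (limma, adjusted p = 0.0916). Among its 4 bright probe sets, 1 gave -0.51, and others, with overlapping groups, gave -0.05 and 0.05.

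The Kdm5b start region is shown as that of the regulator with the largest rise. It holds 3 matches to the core, 1 of them inside AGGAAG, a longer form of the motif.

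Kdm5b, chr1:134559928-134560177, plus strand: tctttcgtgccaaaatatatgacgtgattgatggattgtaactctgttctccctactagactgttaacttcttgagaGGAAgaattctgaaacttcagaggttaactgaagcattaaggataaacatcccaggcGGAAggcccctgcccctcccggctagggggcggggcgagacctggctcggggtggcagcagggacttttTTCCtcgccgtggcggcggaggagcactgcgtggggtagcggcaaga

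Kdm4a, which acts on methyl marks of silent and of transcribed chromatin, read 369 and 392 in the controls and 307 and 282 in the Ets1-deleted arrays. It fell by 0.37 ± 0.11 (limma, adjusted p = 0.0288). Leaving out control replicate 1 (-0.41), control replicate 2 (-0.32) or Ets1-deleted replicate 2 (-0.31) ended the call, with adjusted p of 0.0651, 0.183 and 0.115 in limma. Its relative Kdm4b differed by 0.23 ± 0.12, and Kdm2b, which brings a form of PRC1 to unmethylated CpG islands, by 0.20 ± 0.13. Kdm6b, which removes the PRC2 mark, read 1108 and 1195 against 1110 and 1003 on its brightest probe set, with overlapping groups and a difference of -0.12 ± 0.11 (limma, adjusted p = 0.473). A dimmer Kdm6b probe set went the other way, from 150 and 170 to 198 and 218 (0.38). Kdm1a, which demethylates enhancers, differed by -0.20 ± 0.12.

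Of the 6 tested deacetylases, 1 was called. Hdac1 and Hdac2, the catalytic subunits of several corepressor complexes, differed by 0.01 ± 0.14 and 0.02 ± 0.12, and the signs turned to -0.01 for each with a repeated quantile normalization. Hdac4 differed by 0.02 ± 0.11 and Hdac7, a lymphocyte form of the same class, by 0.06 ± 0.12. Hdac3, which works with the nuclear receptor corepressors, read 437 and 375 in the controls and 456 and 529 in the Ets1-deleted arrays, with no overlap and a difference of 0.28 ± 0.12 short of the threshold (limma, adjusted p = 0.125; 95% interval 0.01 to 0.55). Hdac5, of the signal-regulated class that shuttles out of the nucleus, was the exception: it read 210 and 228 in the controls and 158 and 168 in the Ets1-deleted arrays. It fell by 0.43 ± 0.11 (limma, adjusted p = 0.0139), a call lost without control replicate 2 (-0.37, adjusted p = 0.118 with limma) or Ets1-deleted replicate 1 (-0.39, adjusted p = 0.0542 with limma). Hdac9 was near the array floor at 78.5 and 88.6 in the controls and 79.5 and 108 in the Ets1-deleted arrays.

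Of the 6 remodellers, Chd7, a nucleosome slider of enhancers, read 769 and 753 in the controls and 597 and 607 in the Ets1-deleted arrays. Its replicates were close, and it fell by 0.34 ± 0.11 (limma, adjusted p = 0.0365), with -0.30 on its second probe set. With any 1 array left out the difference hardly moved. It was -0.32 and -0.35 without control replicates 1 and 2 and -0.33 and -0.35 without Ets1-deleted replicates 1 and 2. The standard error was 0.17 without a control array and 0.135 without an Ets1-deleted one, and the call was lost. Smarca4, an ATPase of SWI/SNF that helps open lymphocyte loci, read 805 and 1019 against 1040 and 1190. Its difference of 0.30 ± 0.13 did not pass (limma, adjusted p = 0.129) but did without control replicate 2 (0.47, adjusted p = 0.0328 with limma). Chd4, the ATPase of the NuRD complex, read 1626 and 1817 against 1548 and 1337 and differed by -0.26 ± 0.12 (limma, adjusted p = 0.143). Its other bright probe sets differed by 0.03 and -0.08, with overlapping groups. The alternative SWI/SNF ATPase Smarca2 differed by -0.22 ± 0.12, the SWI/SNF subunits Arid1a and Smarcd1 by -0.20 ± 0.13 and -0.03 ± 0.12, and Brd2, a reader of acetylated histones, by 0.20 ± 0.12. The second bright Brd2 probe set had the opposite sign (-0.12), with overlapping groups.

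Probe sets of the same regulator were compared where more than 1 lay over the level needed for a test, which held for 27 of the 42 genes. Of the 13 called genes, 6 had such probe sets, 12 in all besides the brightest, and all 12 had the sign of the call, as did 91.8% of the further bright probe sets of all called genes. The other 7 called genes (Ezh2, Ep300, Tet3, Eed, Kdm4a, Hdac5 and Setd2) rest on 1 bright probe set each. Among 21 genes that were not called but had a further bright probe set, 5 had one past the threshold when all 19845 bright probe sets were tested together, a test that called 24.2% of them. Among all 3785 uncalled genes with a further bright probe set, 15.6% had such a probe set. The 5 regulators were Smarca2 (-0.61, adjusted p = 0.00389 with limma), Kdm5a (-0.51, 0.00494), Arid1a (-0.49, 0.00739), Kat2b (-0.42, 0.0188) and, against the sign of its brightest probe set, Kdm6b (0.38, 0.0349). The Kat2b probe set past the threshold read 109 and 123 in the controls and 84.2 and 88.3 in the Ets1-deleted arrays. Its mean of 99.9 lay close to the level needed for a test. A brighter Kat2b probe set differed by 0.04, with overlapping groups. The Arid1a probe sets are nearly equal in brightness, and the brighter by linear mean is the one past the threshold. Averaged over their probe sets, Smarca2 (-0.42, adjusted p = 0.00663 with limma) and Arid1a (-0.34, 0.0169) passed as well.

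**Figure D3:**
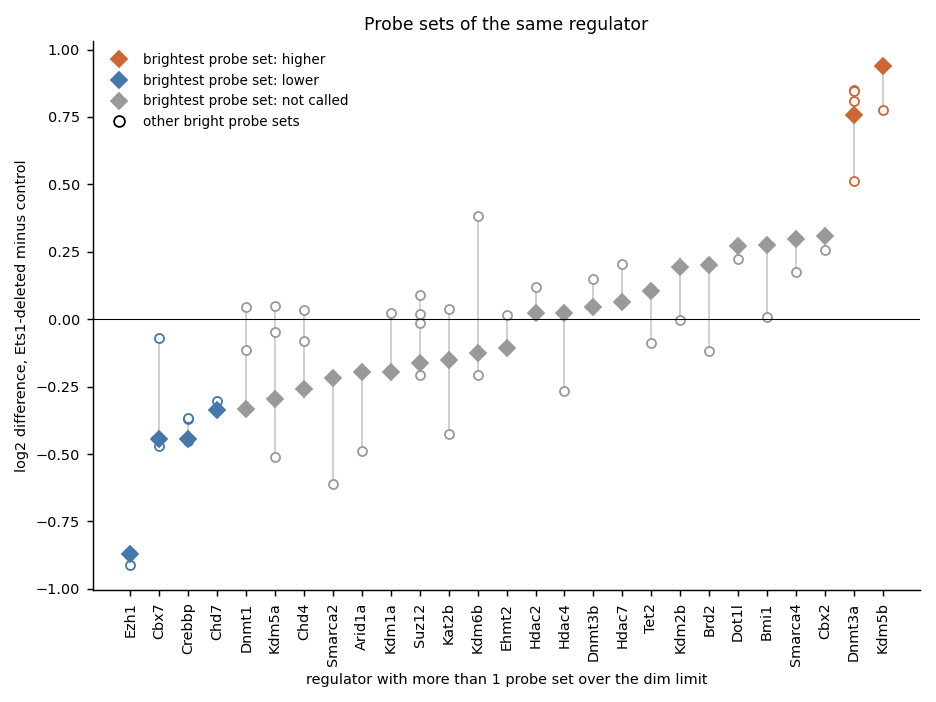
Log2 difference, Ets1-deleted minus control, of every bright probe set of the 27 regulators that had more than 1, with diamonds for the brightest probe set of a gene, open circles for the others, and colours for the call on the brightest (orange higher, blue lower, grey not called). The 5 Dnmt3a probe sets lie between 0.51 and 0.85 and the 4 of Crebbp between -0.45 and -0.36, whereas those of Kdm6b run from -0.21 to 0.38.

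Beyond these genes, 119 further genes of the same machinery were looked up, of which 108 were tested. Of these, 3 rose and 17 fell, or 2.78% and 15.7%, against 13.9% and 12.8% of all tested genes, and their median difference was -0.08. PRC1 held 2 of the 3 rises and 4 of the 17 falls among its 16 tested further genes (12.5% and 25%). Pcgf5, a subunit of variant PRC1, rose by 1.00 ± 0.13 (230 and 235 intensity units to 527 and 409). Rnf2, the main ligase subunit, rose by 0.58 ± 0.13. Cbx6, a CBX reader, fell by 0.72 ± 0.11. Kmt2a and Nsd1, methyltransferases of active chromatin, fell by 0.68 ± 0.11 and 0.67 ± 0.15. Atrx, a remodeller of repeats and heterochromatin, fell by 0.74 ± 0.11 and Kdm7a, a demethylase, by 0.74 ± 0.11. For these 7 genes limma gave adjusted p between 0.000128 and 0.00492. They are the ones, among the genes that could be named, whose calls held with any 1 array left out. Their holding therefore says nothing about the further genes as a whole. The others that could be named, Phf1, Phf19, Phc3, Carm1, Hdac8, Sirt3, Brd8 and Chd8, lost the call in at least 1 such fit. Averaging all probe sets of a gene ended the Kdm7a call (-0.20, limma adjusted p = 0.112) and left Rnf2 at 0.32, Cbx6 at -0.40 and Atrx at -0.49, still called. Uhrf1, which guides Dnmt1 to new strands, differed by 0.07 ± 0.12 (limma, adjusted p = 0.721).

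**Figure D4:**
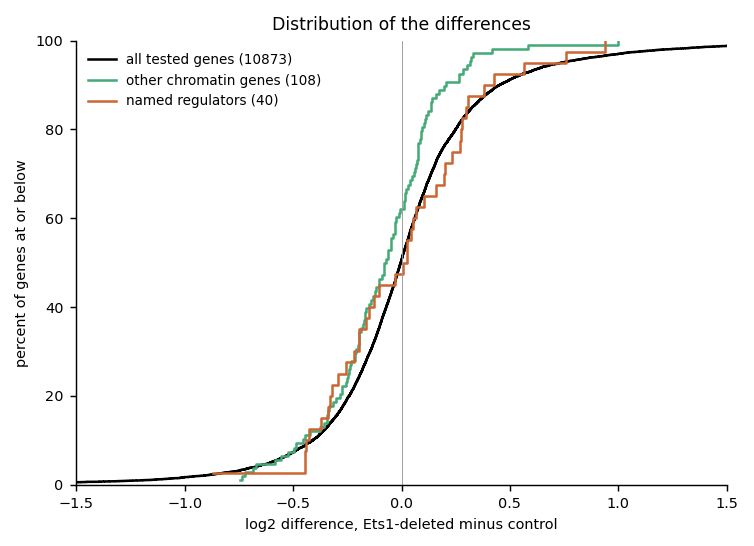
Cumulative percentage of genes (vertical axis) at or below a log2 difference, Ets1-deleted minus control (horizontal axis, cut off at the farthest genes), for the 40 tested regulators (orange), the 108 other chromatin genes (green) and all 10873 tested genes (black). The orange steps cross 50% at 0.02 and the green ones at -0.08.

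Promoter windows of 250 bases before the start were found in RefSeq for 36 of the 43 genes. Their base composition was that of CpG islands: the median GC content of the 54 windows was 67.6%, against 52.4% over all 32851 windows, and the observed over expected CpG ratio reached 0.6 in 77.8% of them, against 34% of all windows. On either strand, GGAA was in at least 1 window of 30 of the 36 genes (83.3%), against 94.2% of all 27025 genes with a window. The longer AGGAAG, which includes the core, was in 10 (27.8%), against 32.3% of all genes. AGGAAG was in 2 of the 5 risen genes with a window (Dnmt3a and Kdm5b) and 0 of the 7 fallen ones. It was in 7 of 21 uncalled and 1 of 3 untested genes with a window. CCGGAA, the form typical of ETS sites in GC-rich promoters, was in 8 (22.2%), against 13.6% of all genes. These 8 genes (Ring1, Dot1l, Kdm2b, Hdac7, Brd2, Smarca2, Smarcd1 and Arid1a) are among the 21 uncalled ones with a window, and 0 of the 12 called ones with a window had a match. A match is a string of letters and was not measured as binding.

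Markers of the cultured cells and of other cell types were read in the same arrays. Of 12 ILC2 markers, 7 rose and 3 fell, and their summed intensity was 21714 to 23929 in the controls and 27341 to 29787 in the Ets1-deleted arrays. Gata3, the defining factor of ILC2, differed by 0.08 ± 0.11 without passing. The falls were in Klrg1 (-1.60), Ptgdr2 (-0.45) and Icos (-0.38), whose protein was used for the sort, and the rises included Thy1 (1.91), Arg1 (1.56) and Rora (1.29). Of 14 myeloid markers with a probe set, 10 rose and 0 fell, with a summed intensity of 2880 to 3160 against 5343 to 5570, while Itgam, Cd14, Elane and Cebpa stayed under the level needed for a test. Of 12 mast cell and basophil markers, 7 rose and 0 fell (2542 to 2560 against 4496 to 4812), with Fcer1a, Ms4a2 and Mcpt4 under that level. For T cells, 4 of 7 rose (2415 to 2440 against 5334 to 5410), all of them CD3 complex genes, with Cd4, Cd8a and Cd5 under it. NK and ILC1 markers showed 1 rise in 7, B cell markers 1 fall in 7 and stromal markers 1 rise and 2 falls in 12. In these lists 4, 4 and 3 markers, respectively, lay under the level needed for a test. Of 19 proliferation genes, 1 rose and 1 fell, with summed intensities of 24908 to 26326 against 22904 to 25629. The rise was in Tyms (0.49), from 124 and 104 in the controls to 165 and 153 in the Ets1-deleted arrays. The fall was in the brighter Mki67 (-0.66), from 3463 and 3805 to 2326 and 2260. The part of these differences in the values of the chromatin regulators was not tested.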

How the data were processed

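The deposited values are probe set intensities on a linear scale, which the authors made with RMA, a method that corrects background, normalizes arrays and combines probes, per the submitters' processing notes. No source used here gives the software or later scaling. The linear scale is read from the values (39.47 to 23291). Such summaries level off near the array floor, which understates folds of dim genes. The intensities were turned into log2 with no further normalization.

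Of 45101 probe sets, 34958 had 1 symbol in the platform annotation, 932 several and 9211 were unnamed. Each gene was read from its probe set with the highest mean log2 value, and tested where that mean reached the 50th percentile of all probe sets. Genotypes were compared with limma 3.58.1 (lmFit, eBayes) in R 4.3.3, two-sided, adjusted by Benjamini-Hochberg over all 10873 genes, with 2 residual and 9.75 prior degrees of freedom. The code was tested on simulated data. Promoters are RefSeq's, build GRCm38.p6.

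The regulators, the further chromatin genes and the markers were chosen with earlier results of these data known. Array values are given for every called regulator and for Dnmt1, Tet2, Kdm6b, Hdac3, Smarca4 and Chd4 whatever their result. In each class of the further genes, at most the 2 largest called differences per direction could be named. Of these, values are given only for the genes that kept their calls with any array left out. The values of Uhrf1, and the array values of Tet1, Hdac9 and Kat2b, and the second probe sets, were added after they were seen. Alternatives covered normalization, filter, probe set choice, background, replicate block, variance model, threshold, fold limit and each array left out. The choice of probe set by linear mean was added after seeing the data.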

Additional observations from a re-analysis of the deposited data

How the results depend on the processing

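Over 18 alternatives, the 13 called regulators kept direction and call in 170 of 232 values, lost the call in 62 and turned sign in 0. Counts of regulators called higher (5) and lower (8) went to 2 and 2 with the array floor subtracted, 2 and 1 with the 1.5-fold limit, and 0 and 0 with each gene's own variance. Of all genes, 26.7% were called in the main fit and 22.7%, 12.4% and 0.12% in these settings. With 1 array left out they ran from 3 to 5 higher and from 3 to 4 lower. In such a fit the lone array adds no spread of its own. Without a control array, every gene whose call or sign changed had a standard error of 0.17, whatever the gap between its Ets1-deleted arrays. The spread was then shared across these genes, and a call depended on the size of the difference alone. Without an Ets1-deleted array the standard error of such genes ran from 0.135 to 0.169. The replicate block gave 5 higher and 8 lower, so it changed no count of regulators. The labels do not say whether a replicate number marks a shared litter, batch or day. The correlation of replicate differences between the genotypes was 0.17 across genes, over 2 pairs, and the block called 3252 of all genes against 2900 without it, so a pairing was neither assumed nor shown. Among the further chromatin genes, 3 higher became 5 with the replicate block, 7 with the mean over probe sets, 7 at a threshold of 0.1, 1 with the 1.5-fold limit, 0 with own variances and 2 to 6 with 1 array left out. The 17 lower became 5 with the 1.5-fold limit and 0 with own variances, while 1388 lower over all genes became 581 and 6. With own variances, where limma shares no spread across genes, 13 of all 10873 genes were called.

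Signs turned for uncalled regulators near 0. With quantile normalization repeated, Hdac1 gave -0.008 and Hdac2 -0.009, and with the mean over probe sets Kdm6b gave 0.017, Hdac4 -0.072 and Smarcd1 0.007. With 1 array left out, the differences ran from -0.017 to 0.104 for Dnmt3b, -0.079 to 0.29 for Tet2, -0.333 to 0.007 for Suz12, -0.125 to 0.228 for Ehmt1, -0.227 to 0.242 for Hdac1, -0.085 to 0.131 for Hdac2, -0.055 to 0.103 for Hdac4, -0.042 to 0.171 for Hdac7 and -0.14 to 0.081 for Smarcd1. The cause was not tested. Values near the array floor, such as those of Tet1 and Hdac9, limit what can be read from dim genes.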
